A study of Danio rerio with 11 samples.

Results

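The genes described here are 48 genes of mitosis in the gastrointestinal tract (GIT) of adult zebrafish, from the cyclins that start division to the proteins that cut the cell apart. They were chosen by name, from a list of symbols, and 47 of the 48 were found among the 19071 genes that the 3 deposited tables share. No row carried the symbol incenp, which names the scaffold of the chromosomal passenger complex, and that gene is not described further. The AB strain fish fell into 4 groups, and no group carried a transgene or mutation by the labels. Control fish (28.5-Ctrl, 2 samples) were kept at 28.5 °C, and torpor fish (18.5-mel, 2 samples) at 18.5 °C in 24 µM melatonin, a hormone that lowers arousal. Irradiated fish at 28.5 °C (28.5-rad, 3 samples) and irradiated torpor fish (18.5-mel-rad, 4 samples, 18.5 °C and 24 µM melatonin) received a total of 32.64 cGy by the labels. Each sample is RNA of GIT tissue, a mixture of many cell types, so that fewer dividing cells and less RNA per dividing cell cannot be told apart.

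Mitosis is driven by Cdk1 bound to A- and B-type cyclins, whose genes are switched on shortly before division and whose proteins are destroyed at its end. Chromosomes are compacted by condensin, attached to spindle microtubules through kinetochores, held back by the spindle checkpoint until all are attached, and released when the anaphase-promoting complex clears the way for separase. In the intestine most of these transcripts come from the dividing progenitors that renew the epithelium, since mature enterocytes do not divide. Germ cells also hold many of them, and oocytes store some as maternal RNA.

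Each deposited table belongs to the comparison of 1 treated group (18.5-mel, 28.5-rad or 18.5-mel-rad) with 28.5-Ctrl. For each gene they give a mean of normalized counts (reads divided by a size factor of the library) over the libraries of the fit. Only this pooled mean was used, so no value per sample, no standard deviation and no test between groups stands behind any number below. The fold changes and p-values in the tables are the authors' own comparisons and were not used. The means pool more libraries than the comparison names. Genes read in a single library share a few exact values, each being what 1 read of that library adds to the mean, and at least 13 such steps were found with 18.5-mel, 11 with 28.5-rad and 10 with 18.5-mel-rad. Of the steps of the 18.5-mel table, 11 lay between 0.0294 and 0.0932 normalized counts a read, but the other two were 0.34 and 1.197. Since the series has 11 samples, the 18.5-mel mean includes reads of libraries beyond the samples described here. When values shared by as few as 10 genes were counted, 12 steps were found with 28.5-rad, so that mean may include such libraries too. Which library each step belongs to was not assigned. In the 28.5-rad table the steps ran from 0.049 to 0.150, and in the 18.5-mel-rad table from 0.0513 to 0.157. After a common scale of 1.05, 9 of the 10 steps of the latter matched a step of the 28.5-rad table within 1%, so the irradiated tables pool largely the same libraries.

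For the gut itself, 15 of 16 enterocyte markers had means of at least 10 in both the 18.5-mel and the 28.5-rad table, among them anpepb with 16585 and 27454 and vil1, which bundles actin in microvilli, with 7932 and 12845. All 11 exocrine pancreas markers found were also high, with a lowest mean of 6606 in the 18.5-mel table, as were the 12 liver markers, with a lowest mean of 325. Germ cell markers were read as well, at lower means. Among the 14 ovary and oocyte markers found, the highest means were 44.4 in the 18.5-mel table (zp3b) and 46.8 in the 28.5-rad table (zp3a.1), and figla was listed at 0. The 10 testis markers reached at most 49.4 in the former (sycp1) and 4.23 in the latter. All means summed to 5136003 with 18.5-mel, 5243456 with 28.5-rad and 5459340 with 18.5-mel-rad, and a single gene held 11.2% of the first sum. The first sum runs over 32520 entries and each of the others over 19072, so the sums do not cover the same genes.

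The mitosis genes were read at a low to moderate level. The median of the 47 means was 25.1 normalized counts with 18.5-mel, 25.3 with 28.5-rad and 26.9 with 18.5-mel-rad. A mean of at least 10 was reached by 36 members in the first (76.6%, against 61.3% of all genes) and by 38 in each of the others (80.9%, against 63.8% and 64.1%). Few were abundant, with 3 members at 100 or above in each table, or 6.38% of the members against 22.4% of genes in the 18.5-mel table. As a rank of reads, which longer transcripts collect more of, the median member stood at percentile 60.4 of the genes with a mean above 0 in the 18.5-mel table. This rank is among 26922 such genes of the 32520 in that table, whereas the shares above are of the 19071 shared genes. In the whole 18.5-mel table only 43.8% of genes reached a mean of 10. No transcript lengths were used, so levels of different genes are not set against each other.

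**Figure D1:**
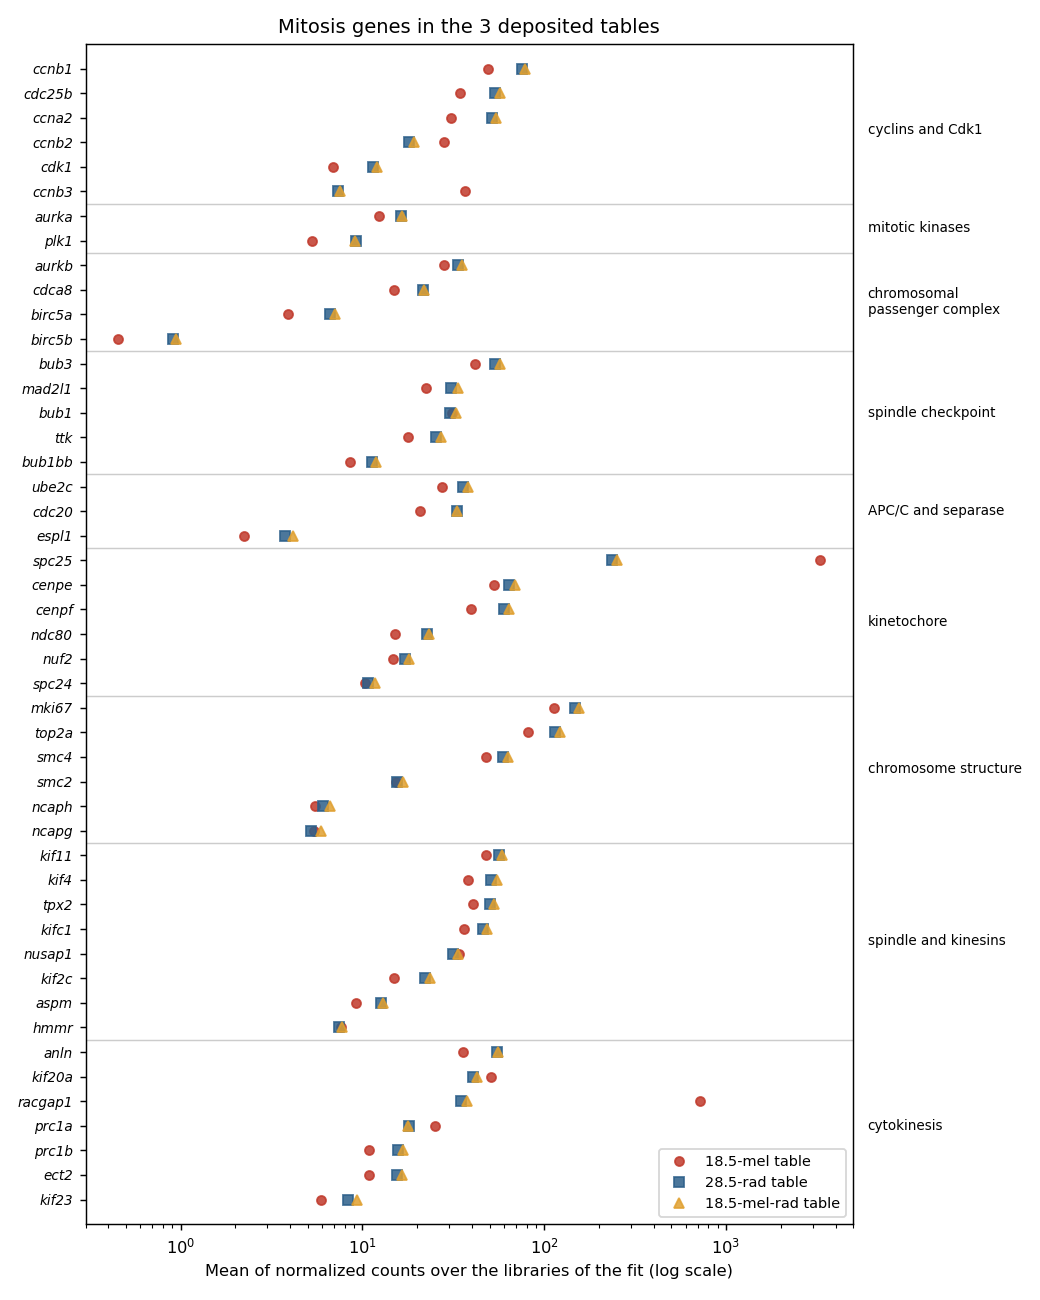
Mean of normalized counts (log axis) of the 47 mitosis genes in the tables of 18.5-mel, of 28.5-rad and of 18.5-mel-rad, grouped by role. Each point is a pooled mean deposited by the authors, with no error available. The means of the irradiated tables nearly coincide, while in the 18.5-mel table spc25 (3287), racgap1 (715) and ccnb3 (36.7) lie far to the right of their own points in the irradiated tables.

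Setting the tables side by side shows which genes weigh more in the pool of the 18.5-mel table. The tables were normalized separately, and their pools differ in libraries. They share the controls by the design, and their steps point to more shared libraries. Most of the small 18.5-mel steps have a 28.5-rad step in similar proportion. Such pairs, 18.5-mel first, are 0.0294 and 0.049, 0.0428 and 0.0704, 0.0521 and 0.0861, 0.0651 and 0.108, and 0.0932 and 0.150. Further pairs are 0.0304 and 0.0496, 0.0543 and 0.0884, 0.0687 and 0.1125, and 0.069 and 0.113. No match of these steps was run. The 18.5-mel steps of 0.34 and 1.197 exceed every 28.5-rad step. Libraries with these steps may carry much of a high ratio, which was not tested. The 18.5-mel pool also holds libraries beyond the samples described here, so a ratio compares pools and not conditions. Over the 11338 genes with a mean of at least 10 in both, the median ratio of the 18.5-mel table to the 28.5-rad table was 0.640, a log2 ratio of -0.64. Every ratio below is given as log2 relative to this median (the centred ratio). The ratios of all genes were one-sided around it, with the 1st percentile at -0.24 and the 99th at 2.90. A centred ratio of at least 1 was reached by 499 genes, or 4.4%, and 0 genes (0%) lay at -1 or below. Where libraries are shared, their reads enter both means, so a ratio far below the median could hardly arise. The one-sided shape therefore says little about the genes.

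Of the 47 mitosis genes, 35 had a mean of at least 10 in both tables, and 33 of these had a ratio above the median of all genes while 2 had a lower one. This minimum favours high ratios, because 18.5-mel means were mostly the lower ones. A gene just above 10 in the 28.5-rad table passed only with a ratio above the median. Thus spc24 (28.5-rad mean 10.7) passed and cdk1 (11.4) did not. The same held for all genes and for the other lists. The median centred ratio of the 35 members was 0.26, with a middle range from 0.11 to 0.51. A centred ratio of at least 0.25 was found for 18 of the 35 (51.4%), against 17.7% of all genes. The cut of 0.25 was chosen after the values were seen and lies just under the members' own median. Their share over it therefore restates that median and is no added support. The shares of members and of all genes were not matched for level, and a smaller share of members than of genes was abundant. The members thus sat to the right of the bulk of genes, mostly by a small amount. Without the centring, or with the means scaled to the sum of each table, the median of the members turned negative, at -0.38 and -0.35, since only 7.14% of genes had a higher mean in the 18.5-mel than in the 28.5-rad table. The sums cover unlike sets of genes, so that scaling does not rest on the same genes in both. A centred ratio of at least 1 was reached by 4 of the 35 (11.4%, beside the 4.4% of all genes), namely racgap1, spc25, ccnb2 and prc1a. Of the 12 members under the minimum in either table, ccnb3 also reached it. The 18.5-mel means of ccnb2 and prc1a could hold at most 23 and 20 reads of the library in which 1 read weighs most. The precision of their ratios is therefore limited, as is that of members with lower means. With every member counted, 40 lay above and 7 below the median, and the median centred ratio was 0.25. That median was set on genes over the minimum, and the share of all genes above it without the minimum is not given. These counts, and the counts by role below that include members under the minimum, therefore stand without a baseline.

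**Figure D2:**
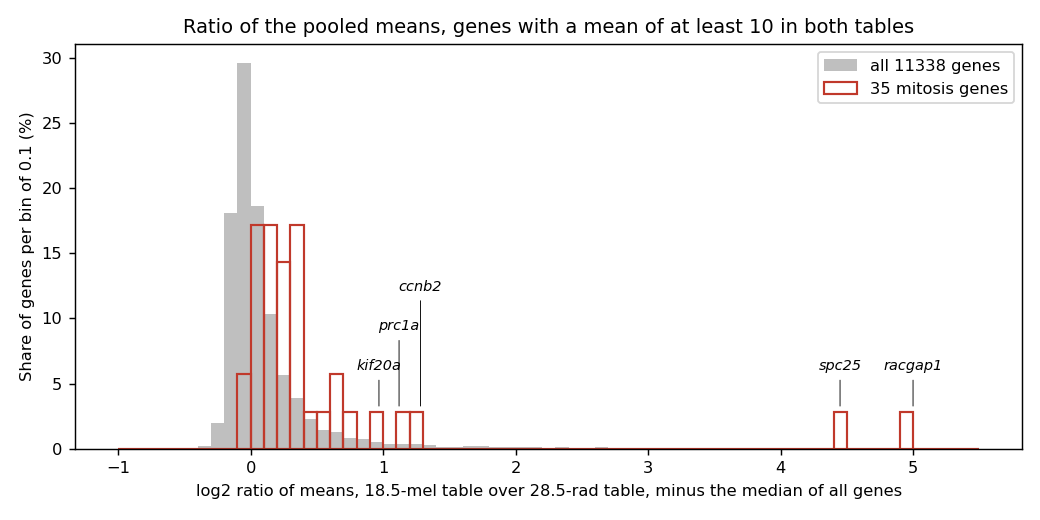
Centred log2 ratio of the 18.5-mel table mean to the 28.5-rad table mean, in bins of 0.1, as the share of all 11338 genes (grey) and of the 35 mitosis genes with a mean of at least 10 in both tables (red outline). Beyond the axis lie 12 genes, and the members are shifted to a median of 0.26, with racgap1 at 5.0 and spc25 at 4.45.

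The largest ratios belonged to a kinetochore subunit and a regulator of cell cleavage. For racgap1, which encodes the GTPase-activating subunit of centralspindlin, the complex that marks the cleavage plane, the mean was 715 with 18.5-mel, 34.9 with 28.5-rad and 37.6 with 18.5-mel-rad. Its plain mean was thus 20.5 times as high in the first as in the second, a centred ratio of 5.0 at percentile 99.8 of all genes. The spc25 gene encodes a subunit of the Ndc80 complex, which grips the microtubule end. It had means of 3287, 235 and 251 in the same order, 14 times as high in the first as in the second, with a centred ratio of 4.45 at percentile 99.7. These values do not rest on a handful of reads. A mean of this size needs at least 598 reads of racgap1 and 2747 of spc25 even if every read came from the library in which 1 read weighs most. In that library 1 read adds 1.197 to the mean. The reads could all belong to it, so the bound does not tell how many libraries carry the high means. Together the genes spc25 and racgap1 held most of the summed means of the mitosis genes in the 18.5-mel table. There spc25 alone made up 63.3% and racgap1 13.8%, against 13.4% and 1.99% in the 28.5-rad table. Left without both, the members summed to 1191 in the 18.5-mel table and 1483 in the 28.5-rad table, or 0.803 as much, above the 0.640 of the median gene. The span of spc25 overlaps an uncharacterized gene in the RefSeq annotation, LOC141374964, and reads of overlapping genes may be shared.

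The partners of these genes in the same complexes had much smaller ratios. The other Ndc80 complex subunits had means in the 18.5-mel and 28.5-rad tables of 15.1 and 22.7 for ndc80, 14.7 and 17.0 for nuf2, and 10.3 and 10.7 for spc24. Their centred ratios were 0.05, 0.43 and 0.59, so that spc25 lay 3.86 or more on the log2 scale above every partner. The 18.5-mel means of these partners could hold at most 12, 12 and 8 reads of the library in which 1 read weighs most. For the kinesin subunit of centralspindlin, kif23, the means were 5.90 and 8.29 and the centred ratio 0.15. The RhoA activator ect2, which racgap1 recruits to the midzone, had means of 10.8 and 15.5 and a centred ratio of 0.13. Subunits of a single complex therefore did not share the high ratios of spc25 and racgap1 in these pools.

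Among the cyclins the B-type genes spread apart. For ccnb1, the main mitotic cyclin, the means were 48.8, 75.9 and 78.7 in the tables of 18.5-mel, of 28.5-rad and of 18.5-mel-rad, a centred ratio of 0.01. For ccnb2, found at the Golgi in human cells, they were 28.0, 18.0 and 19.2, with a centred ratio of 1.28 at percentile 96.7. For ccnb3, the most distant B-type cyclin, known for a part in meiosis in mice, they were 36.7, 7.37 and 7.52, with a centred ratio of 2.96. The ratio of ccnb1 thus matched that of the median gene to within 0.01, while that of ccnb3 was 7.78 times as high. The A-type cyclin ccna2 had the lowest centred ratio of the members over the minimum, at -0.09, from means of 30.9, 51.3 and 54.6 in the same order. The kinase itself, cdk1, was read little, with means of 6.88 and 11.4 and a centred ratio of -0.09, and its activating phosphatase cdc25b stood at 34.5 and 53.3 with a centred ratio of 0.02. Low means limit the precision here, because the 6.88 of cdk1 could hold at most 5 reads of the heaviest library. The 18.5-mel means of ccnb2 and ccnb3 could hold at most 23 and 30.

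The mitotic kinases and the chromosomal passenger complex, which corrects faulty attachments, gave ratios near or a little above the median. For aurka, a kinase of the spindle poles, the means were 12.3 in the 18.5-mel table and 16.4 in the 28.5-rad table, with a centred ratio of 0.23. The Polo kinase gene plk1 had means of 5.28 and 9.23 and a centred ratio of -0.16. In the passenger complex, aurkb, its kinase, had 28.0 and 33.7 and a centred ratio of 0.38, and cdca8 (borealin) had 14.9 and 21.6 and a centred ratio of 0.11. Both survivin genes were low. The means of birc5a were 3.89, 6.66 and 7.02, with a centred ratio of -0.13. Those of birc5b were 0.451, 0.904 and 0.946, the fewest reads of any member, and the first leaves no room for a single read of the heaviest library. Its centred ratio of -0.36 changed sign to 0.24 once a pseudocount of 1 was added, so no direction can be read for this gene.

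Spindle checkpoint genes, whose products hold anaphase until every kinetochore is attached, lay above the median in all 5 cases. The checkpoint kinase bub1 had means of 31.3 and 30.2 in the 18.5-mel and 28.5-rad tables and a centred ratio of 0.70, the highest of the 5. The other members were bub3 with 41.4 and 53.9, mad2l1 with 22.3 and 30.8, ttk (the Mps1 kinase) with 17.9 and 25.3, and bub1bb (BubR1) with 8.59 and 11.2, and their centred ratios ran from 0.14 for ttk to 0.26 for bub3. Past the checkpoint, the activator of the anaphase-promoting complex cdc20 had means of 20.8, 33.0 and 33.1 in the 3 tables and a centred ratio of -0.02, which moved above 0 when the genes used for centring or the irradiated table were exchanged. The gene of its ubiquitin-conjugating enzyme, ube2c, had 27.3 and 35.9 and a centred ratio of 0.25, but a second name table gives its identifier, ENSDARG00000101618, to DNTTIP1, so the identity of this row is uncertain. Separase, espl1, which opens the cohesin ring, was barely read, with means of 2.23 and 3.76.

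Genes of chromosome structure and the large kinetochore proteins lay above the median of all genes. The proliferation marker mki67, which coats mitotic chromosomes, had means of 113, 147 and 154 in the same order of tables and a centred ratio of 0.27. For top2a, the enzyme that untangles sister DNA, they were 80.9, 115 and 123, with a centred ratio of 0.14. The condensin genes lay higher, with centred ratios of 0.34 for smc4, 0.61 for smc2, 0.50 for ncaph and 0.70 for ncapg, the last pair from means below 10. In this order their 18.5-mel means could hold at most 40, 12, 4 and 4 reads of the heaviest library, which limits their precision. The motor cenpe and the large kinetochore protein cenpf had means of 53.0 and 39.5 in the 18.5-mel table, against 64.3 and 60.04 in the 28.5-rad table, and centred ratios of 0.36 and 0.04. All 6 genes of chromosome structure were therefore above the median of all genes, none by 1.

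All 8 genes of the spindle and its kinesins also lay above the median. The highest were nusap1, a microtubule bundler, with means of 33.8 and 31.6 and a centred ratio of 0.74, and hmmr, with 7.66 and 7.42 and a centred ratio of 0.69. Their 18.5-mel means could hold at most 28 and 6 reads of the heaviest library. The pole-separating motor kif11 had means of 47.6 and 56.6 and a centred ratio of 0.40, and tpx2, which activates Aurora A, had 40.6 and 50.1 and a centred ratio of 0.34. The others were kifc1 (0.31), kif4 (0.22), aspm (0.18) and kif2c (0.08). In cytokinesis, kif20a had means of 50.9 and 40.7 and a centred ratio of 0.97, just under the threshold of 1. Its span overlaps that of cdc23, a subunit of the anaphase-promoting complex with a centred ratio of 2.5, and whether reads were assigned by strand is not given in the sources used here. The contractile ring scaffold anln stood at 35.7 and 54.7, a centred ratio of 0.03.

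The paralogs of the midzone bundler Prc1 differed. The means of prc1a were 25.1, 18.1 and 17.8 in the same order of tables, and those of prc1b were 10.9, 15.7 and 16.7. Their centred ratios were 1.12 and 0.12, and that of prc1a alone reached 1. The 25.1 of prc1a could hold at most 20 reads of the heaviest library, and the 10.9 of prc1b at most 9. In all, the spans of 12 members overlap another gene in RefSeq's GRCz12tu gene models, a later assembly than the GRCz11 of the alignments.

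The other cell cycle genes had smaller medians but similar shares of high ratios. Of 38 DNA replication genes 36 were found, and the 29 with a mean of at least 10 in both tables had a median centred ratio of 0.09, with 4 at 1 or above (13.8%, beside 11.4% of the mitosis genes and 4.4% of all genes), the highest being rfc3, a clamp loader subunit, at 2.41. Of 64 further mitotic genes 55 were found, and 36 over the minimum had a median of 0.11, with 5 at 1 or above (13.9%). The highest of these was the condensin II subunit ncaph2 at 3.51, and foxm1, the transcription factor that switches on many mitotic genes, stood at 1.40. Enterocyte markers had a median of -0.09 and none of the 15 reached 1, and the medians of pancreas, liver and immune markers lay between -0.04 and 0.06.

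Germ cell markers gave mixed ratios. Of 7 ovary and oocyte markers over the minimum, 2 reached a centred ratio of 1, zp3b (1.61), an egg coat protein, and zar1 (1.16), while cldnd (-0.41), zp3a.1 (-0.34) and ca15b (-0.07) lay below 0, and the median was 0.16. The summed means of this list, not centred, were 162 in the 18.5-mel table and 197 in the 28.5-rad table. The median gene had 0.640 times as high a mean in the former. The summed means of the 10 testis markers were 67.3 in the 18.5-mel table and 15.1 in the 28.5-rad table, and 49.4 of the former was sycp1, a protein of paired meiotic chromosomes. No testis marker had a mean of at least 10 in both tables. Without that minimum, 5 of the 10 reached a centred ratio of 1, among them sycp1 at 5.21 and odf3b at 5.36. Those of spag6, piwil1 and tekt1 lay below 0. With 28.5-rad means of at most 4.23, the precision of these ratios is limited. The 28.5-rad mean of odf3b, 0.113, equals what 1 read of 1 library adds. Without the minimum 1 of the 16 enterocyte markers, alpi.1 (1.80), also reached a centred ratio of 1. The share of all genes that did so without the minimum is not given, so the count of testis markers stands without a baseline. The part of germ cells in the ratios of the mitosis genes was not tested.

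**Figure D3:**
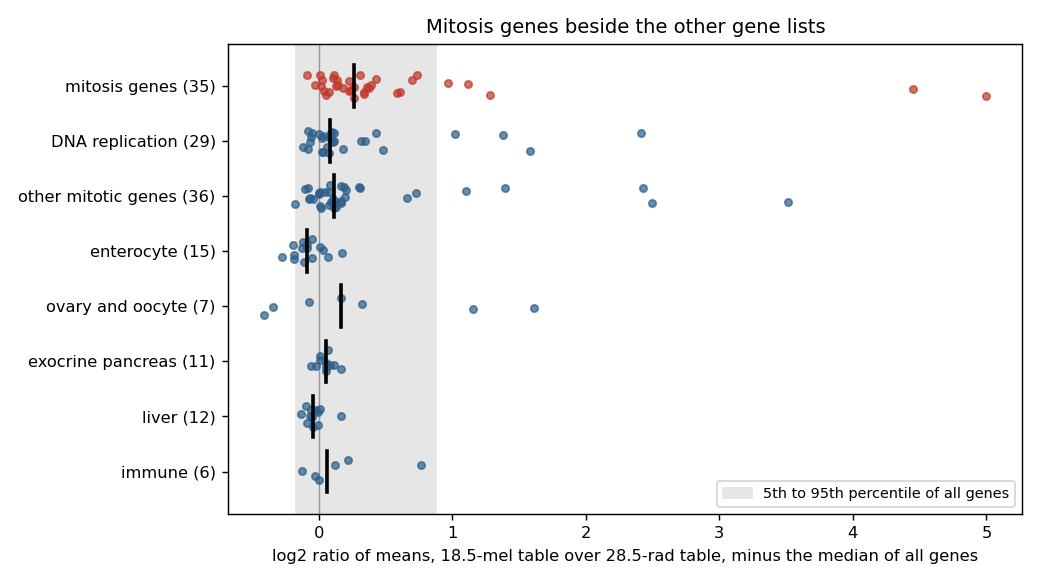
Centred log2 ratio of the 18.5-mel table mean to the 28.5-rad table mean for the mitosis genes and other gene lists. Each point is a gene with a mean of at least 10 in both tables, the black bar is the median of the list, numbers in brackets are genes, and the grey band spans the 5th to the 95th percentile of all genes. The median of the mitosis genes is 0.26, against 0.11 for the other mitotic genes, 0.09 for DNA replication and -0.09 for enterocyte markers.

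The irradiated tables pool largely the same libraries, as their read steps show, so near-equal means were fixed by that overlap and say little about the groups. The ratio of the 18.5-mel-rad table mean to the 28.5-rad table mean had a median of 1.05 over 12135 genes, and relative to it the 38 members with a mean of at least 10 in both lay between -0.09 for prc1a and 0.06 for spc24, with a median of 0.02. Over all genes 0 lay 1 or more from the median (0%), and the 5th and 95th percentiles were -0.09 and 0.06. Liver markers had a median of -0.34 on this scale and c3a.1, a complement gene, the lowest value, -0.58.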

How the data were processed

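RNA from the GIT was sequenced by the authors in 11 samples of 4 groups. By the paper's methods this took place at facilities in Chapel Hill and Belfast, on instruments of different models. Which sample was run where is not given in the sources used here. The titles of the 18.5-mel samples follow another naming form than those of the other groups. Titles of the other groups hold an F or an M code, with M in irradiated groups only, and those of 18.5-mel hold neither. The meaning of these codes and the sex of the fish are not stated in the sources used here. The authors used FastQC and Cutadapt for read quality, STAR for alignment to GRCz11, HTSeq for read counts and, for the comparisons, DESeq2 (steps by the authors, per the paper's methods). Versions, the strand setting and covariates are not given in the sources used here. Of the deposited tables only 1 signal was used, a pooled mean of normalized counts per gene, deposited by the authors for each fit. The remaining columns (log2 fold change, standard error, Wald statistic, p-value and adjusted p-value) are the authors' own comparisons and were not used. No count per sample was used, so depth per library was read only as the weight of 1 read, from values shared by at least 20 genes that are no sum of smaller such values within 3e-09. With a minimum of 10 genes, 13, 12 and 11 steps were found with 18.5-mel, with 28.5-rad and with 18.5-mel-rad.

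Symbols of the irradiated tables were joined to the 18.5-mel table by Ensembl identifier, and 1 identifier with 2 entries was kept once. Log2 ratios of means were centred on the median of genes with a mean of at least 10 in both tables, with no pseudocount. No test was run. The search for steps and the ratio were tried on simulated data with fewer libraries. Genes read in a single library were planted there and fold changes were set without noise, so recovery was largely fixed by the simulation. It does not test the step counts found here. The planned comparison of levels per kb of coding sequence was not run, since no lengths were used, and ratios are therefore given per gene. Members and lists were chosen with earlier results of these data known. Genes given in full were the B-type cyclins, the paralog pairs and, among members with a mean of at least 10 in both tables, the 3 highest and 3 lowest ratios (racgap1, spc25 and ccnb2, and ccna2, cdc20 and ccnb1), while other members are given by role. The 28.5-rad table as the main denominator, the threshold of 1, the band of 0.25 and the markers named from the other lists were chosen after the values were seen. RefSeq annotation of GRCz12tu served only to find overlapping genes, and all 47 members were matched in it by symbol. Python 3.11.15, numpy 2.4.6, pandas 2.3.3 and matplotlib 3.10.9 were used.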

Additional observations from a re-analysis of the deposited data

How the results depend on the processing

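The pooled means allow no left-out sample, no spread and no paired fit. No paired analysis was possible because the tables hold no value per sample. The paralog levels per kb were not run for want of lengths. The median centred ratio of the 35 mitosis genes (0.26) turned to -0.38 with no centring and to -0.35 with scaling to the sum of each table, though the sums cover unlike sets of genes. It was 0.29 with centring on genes with a mean of at least 100 and, by alternatives chosen after seeing the data, 0.25 against the 18.5-mel-rad table and 0.25 over all 47 members. A pseudocount of 1 or the entry with the highest mean left it at 0.26. The number of members at a ratio of at least 1 (4) was 2 with no centring and 2 with scaling to the sum. With a minimum mean of 100 in place of 10, 3 members were detected in each of the tables. The median rank of the members in the whole 18.5-mel table, percentile 60.4, was 32.6 among genes with a mean of at least 10 and 67.3 with genes at 0 included. With no centring and with scaling to the sum, ccnb1 turned to -0.64 and -0.61 and prc1b to -0.53 and -0.50. For cdc20 the ratio became 0.0073 with centring on genes with a mean of at least 100 and 0.032 against the 18.5-mel-rad table, and for birc5b it became 0.24 with the pseudocount. No centring, scaling to the sum and another centring shift every gene by a single constant, so signs kept or turned under them do not bear on a gene's place among all genes. The 18.5-mel-rad table pools largely the same libraries as the 28.5-rad table and is no independent denominator.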
